A study of Mus musculus with 6 samples.

Results

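Chemokines and their receptors were followed in mouse hearts of the genotype named STAT3cKO and in wild-type hearts. The labels do not spell out the allele or the cells it acts in. The genes were taken by name, as symbols in the deposited table that start with Ccl, Cxcl, Ccr, Cxcr or Ackr followed by a digit, and 61 of the 46095 genes in the table are described. By symbol, 24 of these were CC ligands, 13 CXC ligands, 10 CC receptors, 6 CXC receptors, 4 atypical receptors and 4 pseudogenes. Cxcl11, counted here with the CXC ligands, is annotated as a transcribed pseudogene. RNA sequencing had been done on 3 STAT3cKO hearts (replicates 3, 6 and 91) and 3 wild-type hearts (replicates 1, 3 and 4), and values below are in that order of replicates. The labels give genotype alone. Nothing in them states age, sex, strain, the Cre line, if any, or whether libraries came from separate animals, so p-values may measure only a technical spread.

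Chemokines are small secreted proteins that direct the movement of cells. CC and CXC ligands are named for the spacing of conserved cysteines, and most act through G protein-coupled receptors of the CCR and CXCR families. Atypical receptors (ACKR) bind chemokines without activating G proteins, and several remove them from the tissue. In the heart, CXCL12 is made by stromal and vascular cells, while CCR2 marks macrophages that derive from blood monocytes.

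Total counts ran from 15416877 to 18264052 per heart, and the 61 genes together took 6891 to 9469 counts in wild type against 4977 to 5978 in STAT3cKO. Stat3 itself stood at 99.7, 85.8 and 97.5 CPM (counts scaled by TMM to a common library size) in wild type and 52.9, 63.7 and 59.6 CPM in STAT3cKO. It was lower in every STAT3cKO heart (log2 fold change -0.68 ± 0.10 SE, edgeR adjusted p = 0.000677). All fold changes are STAT3cKO against wild type.

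Among the 23 chemokine genes with enough counts to test, 5 fell, 2 rose and 16 did not pass (edgeR, adjusted p under 0.05 over all genes). Those that fell were the ligands Cxcl12, Ccl6 and Ccl24 and the receptors Cxcr4 and Ccr2. Those that rose were the ligand Cxcl1 and the atypical receptor Ackr3. The 5 that fell are 21.7% of the tested chemokine genes and the 2 that rose 8.7%, beside 12.6% and 13.2% of all 14484 genes tested. Together 30.4% changed, against 25.8% of all genes. The median log2 fold change of the 23 genes was 0.29, beside a median of 0.00 over all genes tested, and 11 were negative and 12 positive. Without wild type replicate 1 or without STAT3cKO replicate 3, 3 fell. The groups did not overlap for 5 genes that were lower and 5 that were higher in STAT3cKO, 43.5% of the 23, against 43% of all genes (21.5% in each direction), which is near the background. Every tested gene reached 10 counts in at least 1 heart of each group.

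**Figure D1:**
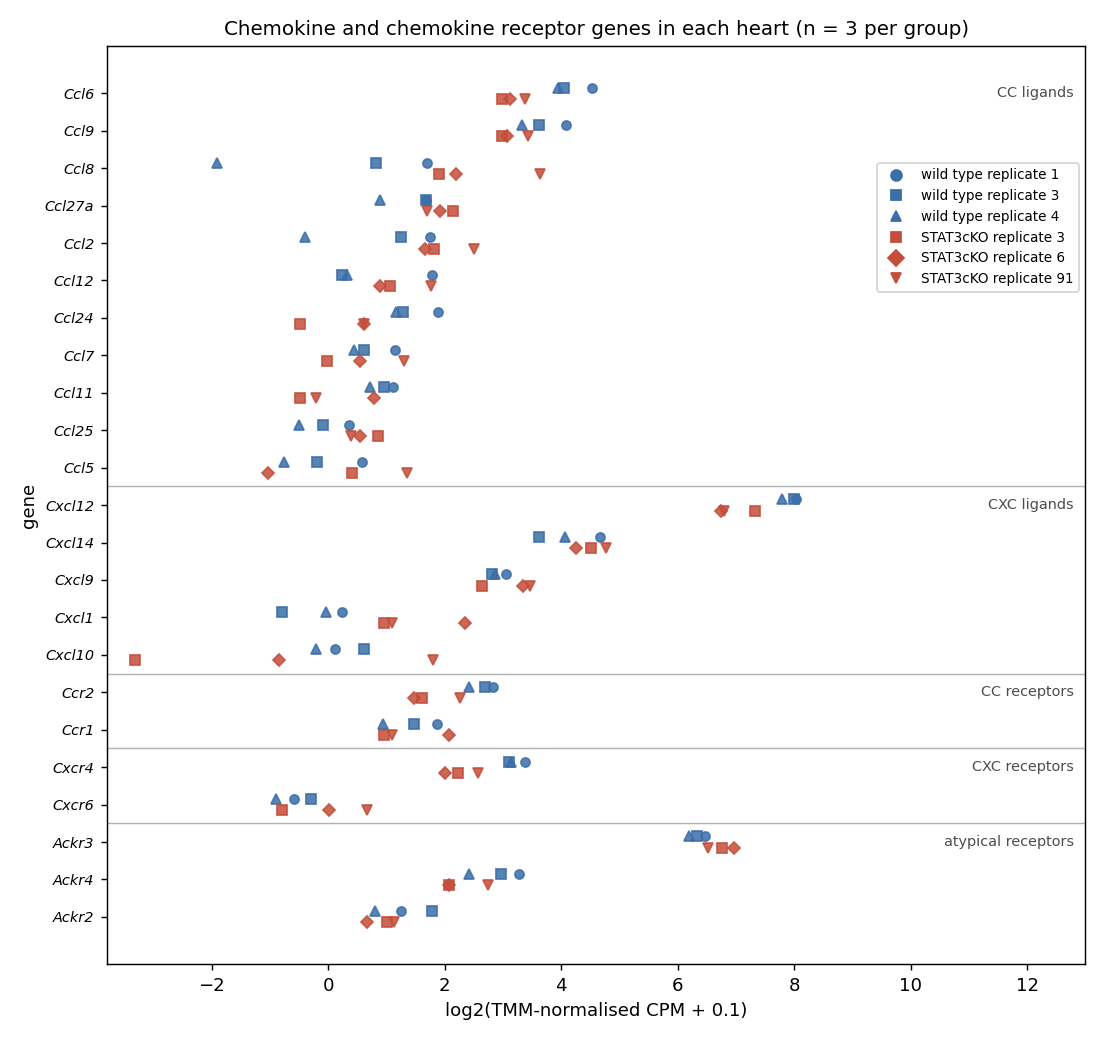
Level of each of the 23 tested genes in each heart, as log2 of TMM-normalised CPM plus 0.1 (horizontal axis), with genes on the vertical axis grouped by role; blue marks wild type, red STAT3cKO, and symbols mark replicates. Cxcl12 and Ackr3 stand far to the right of the other genes, and the red points of Cxcl12, Ccl6, Ccl24, Ccr2 and Cxcr4 all lie left of the blue ones.

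Cxcl12 and its receptor Cxcr4 fell, while its atypical receptor Ackr3 rose. Cxcl12, which retains and attracts CXCR4-bearing cells and guides vessel growth, was at 263, 256 and 220.02 CPM in wild type and 161, 107 and 111 CPM in STAT3cKO. All STAT3cKO hearts were below all wild-type hearts, with means of 246 ± 22.9 and 126 ± 29.9 CPM (SD, n = 3 each). The log2 fold change was -0.97 ± 0.15 (SE, edgeR adjusted p = 0.00162), and it was -0.73 when the trend of each heart with transcript length and GC content was entered as an offset. With that offset the count was again 5 chemokine genes lower and 2 higher, where 7.84% of all genes were lower and 10.9% higher.

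Cxcr4, the receptor through which CXCL12 signals, was at 10.2, 8.47 and 8.67 CPM in wild type and at 4.57, 3.895 and 5.86 CPM in STAT3cKO. These groups did not overlap either, and Cxcr4 fell by 0.93 ± 0.19 on the log2 scale (SE, edgeR adjusted p = 0.00401). Ackr3, also called CXCR7, binds CXCL12 and takes it up into the cell. It was at 88.6, 80.1 and 72.8 CPM in wild type and 108, 125 and 91.6 CPM in STAT3cKO, so that every STAT3cKO heart was higher, the lowest of them by little. Its log2 fold change was 0.43 ± 0.12 (SE, edgeR adjusted p = 0.019). The Ackr3 call was lost with library size as the only scaling (log2 fold change 0.30, edgeR adjusted p = 0.0564) and without wild type replicate 3 (0.0612), wild type replicate 4 (0.0822), STAT3cKO replicate 3 (0.0569) or STAT3cKO replicate 6 (0.0514).

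Ratios of counts within a heart do not depend on the scaling between hearts. Cxcl12 held 2.96, 3.20 and 3.02 counts per Ackr3 count in wild type and 1.49, 0.857 and 1.21 in STAT3cKO. For Cxcr4 the same ratio to Ackr3 was 0.116, 0.106 and 0.119 in wild type against 0.0424, 0.0312 and 0.0639. Neither ratio overlapped between the groups. That follows from the levels above, where Cxcl12 and Cxcr4 were lower and Ackr3 higher in every STAT3cKO heart, and is no separate result. By contrast, counts of Cxcl12 per Cxcr4 count ran from 25.4 to 30.2 in wild type and from 18.9 to 35.1 in STAT3cKO, ranges that overlap. Of all counts for chemokine genes, Cxcl12 took 53.9% to 59.1% in wild type and 33.1% to 45.6% in STAT3cKO, and Ackr3 took 18.2% to 19.3% and 28.0% to 38.6%. Because Cxcl12 is a large part of the total, the share of Ackr3 depends on the Cxcl12 level as well as on the Ackr3 level.

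**Figure D2:**
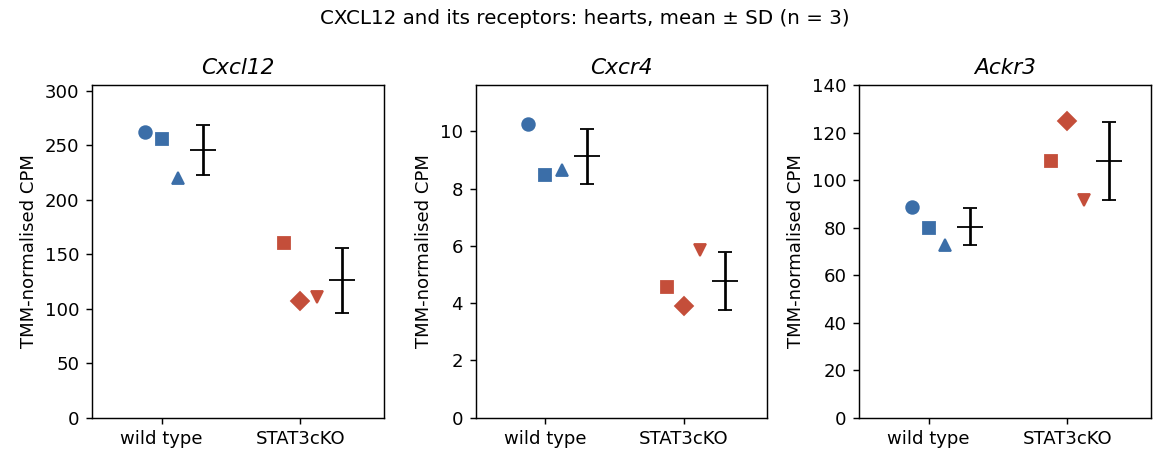
TMM-normalised CPM (vertical axes, from 0) of Cxcl12, Cxcr4 and Ackr3 in each wild-type and STAT3cKO heart (points), with the group mean ± SD (bar, n = 3). Cxcl12 and Cxcr4 are lower in all 3 STAT3cKO hearts and Ackr3 is higher, with STAT3cKO replicate 91 at 91.6 CPM just above wild type replicate 1 at 88.6 CPM.

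The stretches just before the start sites of these 3 genes and of Ccl6, which fell with Cxcl12, are shown because STAT3 is a transcription factor. They are RefSeq sequences of GRCm38.p6, the last 100 bases before the start, 5′ to 3′ on the strand of the gene, and capitals would mark motif matches.
Cxcl12 (chr6:117168435-117168534, plus strand): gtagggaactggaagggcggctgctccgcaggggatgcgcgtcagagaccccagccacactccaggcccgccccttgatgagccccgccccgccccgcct
Cxcr4 (chr1:128592300-128592399, minus strand): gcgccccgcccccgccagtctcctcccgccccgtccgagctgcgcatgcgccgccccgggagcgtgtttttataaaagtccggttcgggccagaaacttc
Ackr3 (chr1:90203880-90203979, plus strand): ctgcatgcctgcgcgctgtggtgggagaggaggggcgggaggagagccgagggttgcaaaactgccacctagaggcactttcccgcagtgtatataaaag
Ccl6 (chr11:83593088-83593187, minus strand): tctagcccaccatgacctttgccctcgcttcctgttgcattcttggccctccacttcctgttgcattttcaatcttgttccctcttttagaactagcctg
Both strands of the 250 bases before each start were searched for the STAT site TTCNNNGAA, the interferon response element (GAAA, any pair of bases, GAAA), the AP-1 site TGANTCA and the NF-kB consensus. None of the 4 was found before these 4 starts. Sequence further away was not searched, and most promoters of this length hold no match, so the absence shows nothing about STAT3. Whether STAT3 binds or controls these genes was not tested. Over all 32851 promoters of that length in the table, 7.02% held the STAT letters, 2.98% the interferon element, 6.75% the AP-1 letters and 7.25% the NF-kB consensus. Promoters were listed for 18 of the 23 tested genes (21 start sites). Of these start sites 1, that of Cxcl14, held the STAT letters, 2 the interferon element, 3 the AP-1 letters and 5 the NF-kB consensus.

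Ccr2, the receptor by which monocytes follow CCL2, CCL7 and CCL12 out of blood, was at 7.001, 6.38 and 5.21 CPM in wild type and 2.93, 2.66 and 4.71 CPM in STAT3cKO. The groups did not overlap, and STAT3cKO replicate 91 came closest to wild type. Its log2 fold change was -0.84 ± 0.24 (SE, edgeR adjusted p = 0.0233). The call was lost with the length and GC offset (log2 fold change -0.67, edgeR adjusted p = 0.0754) and without wild type replicate 1 (0.0879), wild type replicate 3 (0.063), STAT3cKO replicate 3 (0.0815) or STAT3cKO replicate 6 (0.0587). Ccr1, on chromosome 9 like Ccr2 and a receptor on myeloid cells, stood at 3.55, 2.68 and 1.81 CPM in wild type and 1.84, 4.09 and 2.03 CPM in STAT3cKO. Its groups overlapped fully (log2 fold change -0.02 ± 0.35 SE, edgeR adjusted p = 0.968). Ccr1 (123962126 to 123968692) and Ccr2 (124101918 to 124109140) lie in 1 receptor cluster. Within it Ccr1l1 had at most 3 counts in any heart, and Ccr3 had 2 counts in wild type replicate 3, 4 in STAT3cKO replicate 3 and 0 elsewhere. Cxcr6, the receptor of CXCL16 on some T cells, ran from 0.439 to 0.716 CPM in wild type and from 0.478 to 1.48 CPM in STAT3cKO and did not pass (edgeR adjusted p = 0.26).

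Some macrophage markers were lower beside Ccr2 and Cxcr4. Of 17 macrophage and monocyte markers tested, 8 fell, 0 rose and 9 did not pass. Over all genes tested, 12.6% fell and 13.2% rose. The markers that fell included Cd163 (log2 fold change -1.68), Csf1r (-1.09) and Itgam (-0.99). Among the 9, named after their values were seen, C1qa (-0.20), C1qb (-0.10), C1qc (-0.19), Cd68 (-0.13) and Folr2 (-0.13) lay near 0, while Ms4a7 (0.50, higher in every STAT3cKO heart), Ly6c2 (0.45) and Plac8 (0.42) had positive values. None of the 17 markers was at 0 counts in all hearts. The count of 0 rising was also 0 at an unadjusted edgeR p under 0.05, by DESeq2 and by limma-voom. The median log2 fold change of the list was -0.26. Their summed level was 411 to 499 CPM in wild type and 250 to 377 CPM in STAT3cKO, highest within its group in wild type replicate 1 and STAT3cKO replicate 91. Those hearts were also highest for Ccr2, Cxcr4 and Ccl6. They were highest for Cxcl9, Cxcl14 and Ackr4 too, so this order of hearts is not particular to Ccr2, Cxcr4 and Ccl6. Only 5 markers fell without wild type replicate 1. The part of these cells in the receptor results was not tested, and in whole-heart RNA fewer cells of a type and less RNA per cell cannot be told apart.

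**Figure D3:**
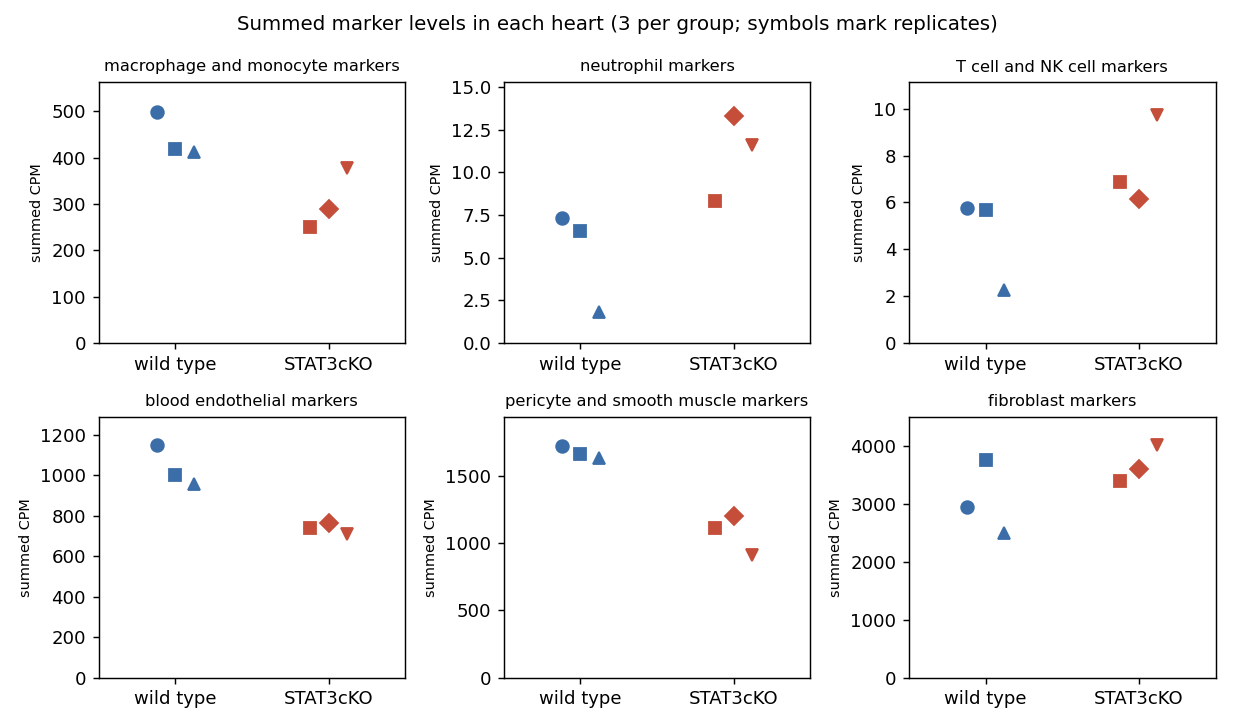
Summed TMM-normalised CPM (vertical axes, from 0) of the markers of 6 cell types in each heart; blue is wild type, red STAT3cKO, and symbols mark replicates as in the plot of all genes. The sums for macrophage, endothelial and pericyte or smooth muscle markers are lower in all 3 STAT3cKO hearts, those for neutrophil and T or NK cell markers are higher in all 3 at levels under 14 CPM, and the fibroblast sums overlap. The sums include listed markers with too few counts to test.

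Of 11 CC ligands tested, 2 fell, Ccl6 and Ccl24, and 9 did not pass (edgeR, adjusted p under 0.05). Over all genes tested, 12.6% fell and 13.2% rose. The log2 fold change was negative for 5 of the 11 and positive for 6. Ccl6, a mouse chemokine of myeloid cells, was at 22.9, 16.3 and 15.2 CPM in wild type and 7.78, 8.63 and 10.3 CPM in STAT3cKO. Every STAT3cKO heart was lower, and Ccl6 fell by 1.03 ± 0.17 on the log2 scale (SE, edgeR adjusted p = 0.00151). Ccl9, the related gene next to it on chromosome 11 (83572917 to 83578636, with Ccl6 at 83587886 to 83593087), was at 16.9, 12.2 and 9.87 CPM in wild type and 7.78, 8.31 and 10.7 CPM in STAT3cKO. Here STAT3cKO replicate 91 overlapped wild type replicate 4, and the log2 fold change of -0.54 ± 0.20 did not pass (SE, edgeR adjusted p = 0.0684). Ccl9 passed when no filter was used (edgeR adjusted p = 0.00392), without wild type replicate 4 (0.0309) and without STAT3cKO replicate 91 (0.0398), and stood at -0.30 without wild type replicate 1. Whether the changes of Ccl6 and Ccl9 differ was not tested. Ccl6 overlaps an antisense gene model outside its exons, and no source here states whether strand was used in the counting.

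Eotaxins attract eosinophils through CCR3. Ccl24 (eotaxin-2), expressed by resident macrophages, was at 3.603, 2.33 and 2.14 CPM in wild type and 0.614, 1.43 and 1.42 CPM in STAT3cKO, without overlap (log2 fold change -1.20 ± 0.36 SE, edgeR adjusted p = 0.027). It did not pass when wild type replicate 1 (edgeR adjusted p = 0.124) or replicate 3 of the STAT3cKO hearts (0.0928) was left out. For Ccl11 (eotaxin-1) the levels ran from 1.54 to 2.06 CPM in wild type and from 0.614 to 1.62 CPM in STAT3cKO, and the log2 fold change of -0.86 ± 0.39 did not pass (SE, edgeR adjusted p = 0.12). Ccl11 passed under the offset for transcript length and GC (-1.17, edgeR adjusted p = 0.049) and without STAT3cKO replicate 6 (-1.38, adjusted p = 0.021).

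Ligands of inflamed tissue on chromosome 11 varied widely between hearts. Ccl8, a monocyte chemoattractant made by tissue macrophages, was at 3.14, 1.67 and 0.165 CPM in wild type and 3.62, 4.48 and 12.3 CPM in STAT3cKO. All STAT3cKO hearts were above all wild-type hearts, but each group spanned more than its mean. At a log2 fold change of 2.03 ± 0.95 (SE) it did not pass (edgeR adjusted p = 0.192), and the fits that left out 1 heart gave 1.28 (without STAT3cKO replicate 91) to 2.93 (without wild type replicate 1). It passed with limma-voom (adjusted p = 0.042) and with edgeR without robust estimation (adjusted p = 0.0442).

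Ccl2, the main ligand of CCR2, was at 3.24, 2.27 and 0.658 CPM in wild type and 3.41, 3.05 and 5.58 CPM in STAT3cKO, where wild type replicate 1 overlapped the STAT3cKO group (log2 fold change 0.97 ± 0.48 SE, edgeR adjusted p = 0.171). Ccl2 passed only when no filter was used (edgeR adjusted p = 0.00677). Ccl12, another CCR2 ligand, was at 3.35, 1.07 and 1.15 CPM in wild type and 1.98, 1.75 and 3.28 CPM in STAT3cKO. The ranges of Ccl12 overlapped (log2 fold change 0.33, edgeR adjusted p = 0.619). Ccl7 ran from 1.26 to 2.11 CPM in wild type and from 0.887 to 2.35 CPM in STAT3cKO (edgeR adjusted p = 0.941, log2 fold change -0.04). Ccl5, made by T and NK cells, ran from 0.494 to 1.39 CPM and from 0.39 to 2.46 CPM (edgeR adjusted p = 0.465, log2 fold change 0.63). In STAT3cKO replicate 91 the levels of Ccl2, Ccl5, Ccl7, Ccl8 and Ccl12 were the highest of that group, and in wild type replicate 1 they were the highest of the other. The same held for Ccl6, Ccl9, Cxcl9 and Cxcl14, among others, so it is not particular to these ligands.

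The remaining CC ligands tested are known for homing to gut and skin. Ccl27a was at 3.09, 3.10 and 1.76 CPM in wild type and 4.30, 3.70 and 3.12 CPM in STAT3cKO, higher in every STAT3cKO heart, but the log2 fold change of 0.48 ± 0.27 did not pass (SE, edgeR adjusted p = 0.213). Its exons overlap those of Il11ra1 on the other strand, and it has a close copy in Ccl27b, so its counts are uncertain. Ccl25 went from a range of 0.603 to 1.18 CPM to one of 1.20 to 1.71 CPM (edgeR adjusted p = 0.195, log2 fold change 0.69), and its exons overlap Elavl1.

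Of the CXC ligands other than Cxcl12, Cxcl1 rose. Cxcl1, which draws neutrophils through CXCR2, was at 1.08, 0.477 and 0.878 CPM in wild type and 1.84, 4.999 and 2.03 CPM in STAT3cKO. Raw counts were 21, 8 and 16 against 27, 77 and 37, so the gene was low throughout. Every STAT3cKO heart was higher, and replicate 6 stood above the other two. The log2 fold change was 1.84 ± 0.45 (SE, edgeR adjusted p = 0.0116), and it was 1.23 without STAT3cKO replicate 6, where the call held (edgeR adjusted p from 0.00864 to 0.0459 over the fits that left out 1 heart). The 8 neutrophil markers listed summed to 1.81 to 7.31 CPM in wild type and 8.33 to 13.3 CPM in STAT3cKO. Only 3 of them had enough counts to test. Of these, S100a8 rose (log2 fold change 2.01, edgeR adjusted p = 0.0137), while S100a9 (1.43) and Csf3r (0.26) did not pass. Over all genes tested, 13.2% rose. The number of neutrophil markers that rose was 2 with the DESeq2 test, without a filter, without wild type replicate 1 or without STAT3cKO replicate 3. It was 0 with a stricter filter. The part of neutrophils in the Cxcl1 result was not tested.

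Cxcl1 lies on chromosome 5 with the related genes Cxcl2 and Cxcl3. Cxcl2 had at most 3 counts in any heart and Cxcl3 had none. Stretches of 60 bases, from 110 to 51 bases before each start, are shown because all 3 hold matches to the NF-kB consensus, which is known to drive these genes in inflammation. Capitals mark the matches, which overlap each other on the 2 strands (RefSeq, GRCm38.p6).
Cxcl1 (chr5:90891135-90891194, plus strand): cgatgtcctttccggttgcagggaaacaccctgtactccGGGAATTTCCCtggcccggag
Cxcl2 (chr5:90903789-90903848, plus strand): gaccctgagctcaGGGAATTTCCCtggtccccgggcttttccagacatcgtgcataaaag
Cxcl3 (chr5:90785991-90786050, plus strand): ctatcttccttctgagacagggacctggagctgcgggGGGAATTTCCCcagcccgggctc
The capital letters are the same in all 3, and whether they bear on the counts was not tested. A match is a description of the letters and not a bound site.

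Cxcl9 and Cxcl10 are induced by interferon and attract T cells through CXCR3. Cxcl9 was at 8.24, 6.92 and 7.13 CPM in wild type and 6.14, 9.997 and 10.95 CPM in STAT3cKO, with overlap (log2 fold change 0.29 ± 0.20 SE, edgeR adjusted p = 0.325). Cxcl10 had 19, 24 and 14 counts in wild type against 0, 7 and 62 in STAT3cKO. The STAT3cKO hearts thus lay on both sides of wild type, and the log2 fold change of 0.34 ± 1.16 did not pass (SE, edgeR adjusted p = 0.854). It was -2.15 without STAT3cKO replicate 91 (edgeR adjusted p = 0.0676). Cxcl10 overlaps exons of Art3 on the other strand. The part of the Cxcl10 promoter from 220 to 61 bases before the start is shown because it held the most matches of the tested genes. Capitals mark, in order, the interferon response element, an NF-kB match, a pair of overlapping NF-kB matches and an AP-1 site (RefSeq, GRCm38.p6).
Cxcl10 (chr5:92348950-92349109, minus strand): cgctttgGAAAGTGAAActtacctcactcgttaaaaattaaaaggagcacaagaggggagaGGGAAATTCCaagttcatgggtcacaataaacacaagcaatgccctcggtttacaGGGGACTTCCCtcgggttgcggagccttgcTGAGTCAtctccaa

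Cxcl14, a chemokine of stromal and epithelial cells, was at 25.3, 12.1 and 16.6 CPM in wild type and 22.7, 18.96 and 27.1 CPM in STAT3cKO. Its groups overlapped (log2 fold change 0.35 ± 0.27 SE, edgeR adjusted p = 0.387), and it passed without wild type replicate 1 (log2 fold change 0.67, edgeR adjusted p = 0.0305). Among the other atypical receptors, Ackr4, which takes up CCL19, CCL21 and CCL25, was at 9.63, 7.70 and 5.21 CPM in wild type and 4.09, 4.09 and 6.57 CPM in STAT3cKO. These ranges overlapped through STAT3cKO replicate 91 and wild type replicate 4 (log2 fold change -0.60 ± 0.26 SE, edgeR adjusted p = 0.106), and its exons overlap Acad11 on the other strand. Ackr4 passed when no filter was used (edgeR adjusted p = 0.0181), without wild type replicate 4 (0.0446) and without STAT3cKO replicate 91 (0.032). Ackr2, a scavenger of inflammatory CC chemokines, ran from 1.65 to 3.34 CPM in wild type and from 1.49 to 2.08 CPM in STAT3cKO (log2 fold change -0.39, edgeR adjusted p = 0.389).

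**Figure D4:**
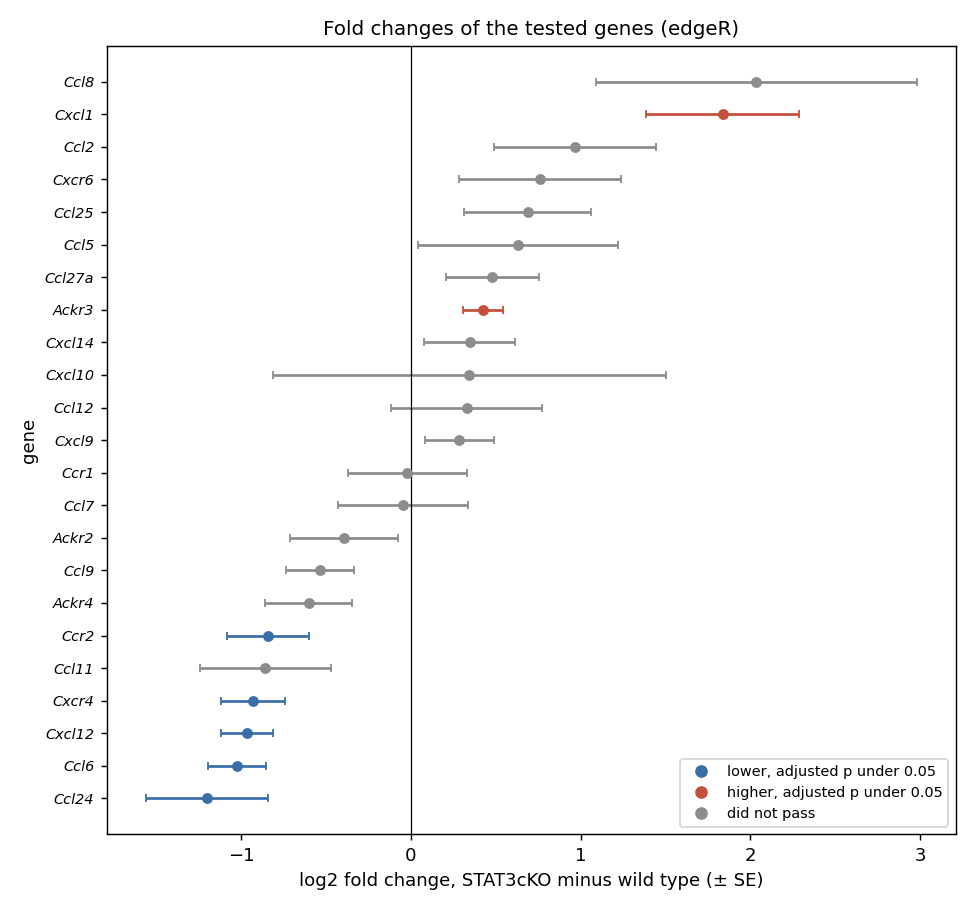
Log2 fold change of STAT3cKO against wild type (horizontal axis, ± SE, edgeR, n = 3 per group) for the 23 tested genes on the vertical axis, ordered by size; blue genes fell, red genes rose and grey genes did not pass. The values run from -1.20 for Ccl24 to 2.03 for Ccl8, whose wide bar reflects the spread between hearts.

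The other 38 genes had too few counts to test. No read was counted in any heart for 7 of them: Ccl20, Ccl21b, Ccl21c, Cxcl3, Ccl16-ps, Ccl19-ps1 and Ccl19-ps2. A count of 0 allows up to 3 counts per library, or 0.154 to 0.205 CPM in these hearts (counting error only). Another 14 had at most 3 counts in every heart: Ccl1, Ccl19, Ccl21a, Ccr6, Ccr8, Ccr9, Ccr10, Ccr1l1, Cxcl2, Cxcl5, Cxcl11, Cxcl15, Cxcl17 and Cxcr1. Ccl21a, Ccl21b and Ccl21c are near-identical copies, so reads shared among them may have been dropped or split.

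The last 17 reached 4 to 17 counts in at least 1 heart. The interferon-linked receptor Cxcr3 had 8, 1 and 7 counts in wild type against 0, 5 and 15 in STAT3cKO. Cxcr2, the neutrophil receptor of CXCL1, had 7, 1 and 2 counts against 2, 4 and 11. Ccl4 had 12, 3 and 3 against 5, 2 and 7, and Ccl3 had 4, 1 and 1 against 2, 4 and 1. Both are made by activated macrophages and T cells. Ccr7, the lymph node homing receptor, had 4, 2 and 5 counts against 7, 7 and 6, and Ackr1, a chemokine-binding protein of venules and red cells, had 1, 4 and 4 against 5, 4 and 6. Cxcl16, whose exons overlap Zmynd15, had 9, 6 and 2 against 0, 4 and 3. The pseudogene Ccl19-ps3 had 12, 17 and 1 against 5, 9 and 6. The rest were Ccl17, Ccl22, Ccl26, Ccl27b, Ccl28, Ccr3, Ccr4, Cxcl13 and Cxcr5, each with at most 8 counts in any heart. When all genes with a count were fitted without a filter, none of 31 such genes passed (edgeR), and 1, Ccl17, had an unadjusted p under 0.05, with 0 counts in all wild-type hearts and 0, 3 and 5 in STAT3cKO. DESeq2 and limma-voom were not run on these genes.

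Ligands and receptors were thus unequally measured. Cxcl12, with Cxcr4 and Ackr3, and the CCR2 ligands Ccl2, Ccl7 and Ccl12, with Ccr2, are given here with ligand and receptor both tested. For Cxcl1, Cxcl9, Cxcl10, Ccl11, Ccl24, Ccl25 and Ccl27a the ligand was tested and the receptor (Cxcr2, Cxcr3, Ccr3, Ccr9 or Ccr10) was below the filter, while for Cxcr6 it was the ligand, Cxcl16, that was too low. These pairs are not a complete list. Ackr4, which takes up CCL25, was tested, and so were Ccr1 and Ackr2, whose ligands are not set beside them here.

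Levels of different genes were compared per kilobase of the longest annotated transcript. Cxcl12 led in wild type with 43.8 CPM per kilobase, followed by Ackr3 with 26.3, Ccl6 with 12.6 and Cxcl14 with 9.85. In STAT3cKO the order was Ackr3 with 35.3, Cxcl12 with 22.4, Ccl8 with 13.3 and Cxcl14 with 12.5 CPM per kilobase. The place of Ccl8 rested on STAT3cKO replicate 91, and with the median transcript length Cxcl14 (13.9) stood above it (13.3). The change of order between Cxcl12 and Ackr3 was also found with the median transcript length (81.7 and 46.4 in wild type, 41.9 and 62.3 CPM per kilobase in STAT3cKO). Which transcripts were read is not known from gene counts.

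Of 8 tested genes of the chemokine system whose names do not follow the rule, 2 rose and 3 fell (median log2 fold change -0.27). Over all genes tested, 13.2% rose and 12.6% fell. With library size alone, with the length and GC offset or without STAT3cKO replicate 6, 1 of the 8 rose. Mif, a cytokine that also binds CXCR4, rose from 33.3 ± 7.20 to 51.5 ± 1.02 CPM (SD, n = 3 each; log2 fold change 0.63, edgeR adjusted p = 0.00528). Cx3cr1, the fractalkine receptor of resident macrophages, fell by 1.25 on the log2 scale (edgeR adjusted p = 0.0064), and Cmklr1, the chemerin receptor, fell by 0.52 (adjusted p = 0.0119). Rarres2, which encodes chemerin, was higher (0.58, edgeR adjusted p = 0.0161) and Gpr182, an atypical receptor of endothelium, lower (-0.86, adjusted p = 0.014), both named after their values were seen. Cx3cl1, the ligand of CX3CR1, stood at 10.2 and 10.6 CPM in wild type and STAT3cKO (edgeR adjusted p = 0.846), also named after its value was seen.

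Of 32 signalling genes below the receptors, 8 fell and 1 rose, beside 12.6% and 13.2% of all genes, at a median log2 fold change of -0.27. Prex1, an activator of Rac in migrating cells, fell from 14.6 ± 1.85 to 6.97 ± 1.36 CPM (SD, n = 3 each; log2 fold change -1.06, edgeR adjusted p = 0.00097), and Elmo1 (-0.75) and Gng12 (-0.49) fell too. The gene that rose, named after its value was seen, was Rgs2 (0.71), which shortens G protein signals, and 0 rose without wild type replicate 4. The fits that left out 1 heart gave 4 or 5 genes that fell, except 7 without STAT3cKO replicate 91, and the length and GC offset gave 5. Of 16 inducers of chemokine transcription, Tnfrsf1a, a TNF receptor, fell (-0.58, edgeR adjusted p = 0.00391) and 0 rose (2 at an unadjusted p under 0.05, 0 by DESeq2 or limma-voom, and 1 in the fits without wild type replicate 1, STAT3cKO replicate 3 or STAT3cKO replicate 6), while Irf3 (0.36, adjusted p = 0.0545) and Irf7 (-0.44, adjusted p = 0.0644) did not pass. Tnf, Ifnb1 and Il17a had no count in any heart.

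Cells that make chemokines differed in their markers as well. The counts of markers below stand beside 12.6% of all genes tested that fell and 13.2% that rose. Blood endothelial markers fell in 5 of 8 cases, with Cdh5 (-1.09), Pecam1 (-0.70) and Tek (-0.50), at a list median of -0.45 on the log2 scale. Named after their values were seen, Vwf (-0.41), Egfl7 (0.23) and Emcn (0.16) did not pass, and 1 marker rose without STAT3cKO replicate 6. The endothelial sum was 956 to 1148 CPM in wild type and 709 to 764 CPM in STAT3cKO. Pericyte and smooth muscle markers fell in 5 of 9, with Acta2 (-2.09), Notch3 (-0.76) and Myh11 (-2.78), at a median of -0.76 (3 fell with the length and GC offset, without wild type replicate 1 or without STAT3cKO replicate 91), and summed to 1627 to 1718 CPM and 914 to 1199 CPM. Fibroblast markers went both ways, Dcn up (0.79) and Col1a2 (-0.72) and Col1a1 (-0.51) down of 8 (1 down with upper-quartile factors, the stricter filter or the length and GC offset, or without wild type replicate 3, STAT3cKO replicate 3 or STAT3cKO replicate 6), with sums of 2491 to 3757 CPM and 3400 to 4014 CPM. No marker on the endothelial, pericyte and fibroblast lists was at 0. The part of these cells in the lower Cxcl12 level was not tested. Lymphatic markers fell in 2 of 5 cases (Flt4, -0.51, and Lyve1, -0.67, while Reln, -0.74, did not pass), and 1 fell with the length and GC offset or without wild type replicate 3, STAT3cKO replicate 3 or STAT3cKO replicate 91. Of 12 T and NK cell markers listed, only 4 had enough counts to test. Of these 4, 0 passed with edgeR (Il7r 1.34, Gzma 0.75, Cd4 0.46), 1 at an unadjusted p under 0.05, 0 with DESeq2, 1 with limma-voom and 1 without wild type replicate 1. Only 2 of 7 dendritic cell markers and 1 of 6 B cell markers had enough counts to test. Of the 2 dendritic cell markers 0 passed with edgeR, at an unadjusted p under 0.05, with DESeq2 or with limma-voom (Itgax -0.76, Zbtb46 -0.17). The B cell marker tested, Cd79b, rose with edgeR (1.46). It did not pass with DESeq2 or limma-voom, or when any heart other than STAT3cKO replicate 6 was left out. Cardiomyocyte markers, the defining genes of the labelled tissue, were present in all hearts at a summed 43290 to 59290 CPM, and of 8, 3 rose (Myl2, Tnni3 and Tnnt2) and 1 fell (Ryr2, -0.65, named after its value was seen, whose call was lost under the length and GC offset). With that offset, 2 of the 8 rose.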

How the data were processed

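The authors deposited a table of raw read counts for 6 hearts, not normalized. Per the submitters' processing notes, HISAT2 and GRCm38 were used; no source here states the counter, annotation or strand setting. Low genes were removed with filterByExpr (edgeR 4.0.16, minimum count 10), leaving 14484. Counts were scaled by TMM and compared by edgeR's robust quasi-likelihood F test in R 4.3.3, with genotype as the only term and Benjamini-Hochberg adjustment over all genes tested. Each SE equals the log2 fold change over the root of F. The procedure was tested on simulated data. Coordinates came from a RefSeq table of GRCm38.p6 (41483 symbols matched), and transcript lengths from GENCODE M21 (33980 matched). Of the genes the naming rule takes, 1 was in every fit and is not reported here. Named in the text are the other chemokine genes, and up to 3 genes with the smallest adjusted p of each other list; further genes are marked as named after their values were seen. The genes and lists were chosen with earlier results of these data known. The closing section covers 16 alternatives, with DESeq2 1.42.0 and limma 3.58.1 (voom).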

Additional observations from a re-analysis of the deposited data

How the results depend on the processing

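Of the chemokine genes called, Cxcl12, Ccl6 and Cxcr4 passed in the same direction in all 16 alternatives, and Cxcl1 in the 15 that kept it. Ccl24 passed in 13 of 15, and Ccr2 and Ackr3 in 11 of 16 each; the settings without a call stand beside those genes above. A stricter filter (1 CPM or more in 3 or more libraries, mean count 50 or more) removed Cxcl1 and Ccl24 and so left 1 chemokine gene higher. With library size alone 1 was higher, and over all genes 1109 were higher and 2714 lower, while the overall median log2 fold change stood at -0.11. The length and GC offset gave 1572 genes higher and 1136 lower. Leaving out each heart in turn gave 1 to 3 chemokine genes higher and 3 to 7 lower, and over all genes 1240 to 1890 higher and 1176 to 1991 lower. Stat3 passed in all 16 (log2 fold change -0.80 to -0.42). Among genes that did not pass, the sign turned for Ccl12 with the length and GC offset (-0.19) and for Cxcl10 with limma-voom (-1.28). It also turned in fits without 1 heart, which gave -0.0012 to 1.08 for Ccl12, -0.15 to 1.13 for Ccl5 and -2.15 to 0.89 for Cxcl10, each lowest without STAT3cKO replicate 91, and -0.50 to 0.22 for Ccl7 and -0.47 to 0.24 for Ccr1. The cause of these changes was not tested. No paired analysis was made because the labels name no pairs of hearts. The groups share only 1 replicate number, and nothing states that it marks a pair.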
